A study of Mus musculus with 12 samples.

Results

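MHC class I molecules display peptides from inside the cell to CD8+ T cells, and a tumor cell that displays fewer of them is harder for these T cells to see. A class I molecule is a heavy chain (H2-K1 or H2-D1 in the mouse) held together with the light chain B2m. Its peptides are cut by the proteasome, in which interferon replaces the constitutive catalytic subunits Psmb6, Psmb7 and Psmb5 with Psmb9, Psmb10 and Psmb8, and are then carried into the endoplasmic reticulum by the Tap1/Tap2 transporter and loaded with the help of tapasin (Tapbp). Nlrc5 is the transactivator that switches on the class I promoters. These 10 genes were taken by name from the count and FPKM tables, and all 10 passed the filter on low counts, as did 15504 of 54532 genes in all. They were followed across mammary tumors of MMTV-neu mice. Every group carried this transgene, a Neu (Erbb2) gene without an activating mutation, placed behind a promoter of the mouse mammary tumor virus. Mice with established tumors were fed control diet, MSU-42011 or bexarotene, both retinoid X receptor (RXR) agonists at 100 mg/kg diet, for 10 days, with 4 tumors per group, each from its own mouse by the study's methods. The age and strain of the mice are not given in the sources used here.

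In total, 16583413 to 25925027 reads per tumor were counted on genes. Of the 8 epithelial markers, 7 were detected in every tumor, and their summed level was 5082 to 6501 normalized CPM in control tumors, 4773 to 5463 with MSU-42011 and 3130 to 6051 with bexarotene (5205 to 6051 without replicate 1). Normalized CPM is the count of a gene scaled to the library size of its tumor after TMM correction. Bexarotene replicate 1 stood apart from the other tumors. It lay at −115 on the first principal component against −16.2 to 34.2 for the others, it had the lowest epithelial sum, and its fibroblast markers summed to 10470 normalized CPM against 92.46 to 813.7 in the other 11 tumors. The fold changes of the 10 genes against control and the marker sums are therefore also given without it.

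Of the 10 genes, 7 lie in the MHC on chromosome 17, within 1351601 bases (GRCm38). H2-K1 is at chr17:33996017-34000333 on the minus strand, H2-D1 at chr17:35262730-35267499 on the plus strand, and Tapbp at chr17:33915899-33929288 on the plus strand. Psmb9, Tap1, Psmb8 and Tap2 follow each other at chr17:34181988-34187764 (minus), chr17:34187553-34197225 (plus), chr17:34197721-34201454 (plus) and chr17:34203527-34216321 (plus). B2m is at chr2:122147686-122153083 (plus), Psmb10 at chr8:105935735-105938444 (minus) and Nlrc5 at chr8:94434356-94527272 (plus). All 10 are annotated as protein coding.

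Because class I genes are controlled together through short promoter elements, the windows from 250 bases before to 50 bases after each start site were read from RefSeq (GRCm38.p6), with 8 of the 10 genes matched. Tap2 and Nlrc5 were not matched to a window in the set of promoters used here. The first set below shows the module that B2m and both heavy chains share, in which the capitals mark TGACG (an X2-like, CREB/ATF-type element) and ATTGG (a reversed CCAAT or Y box, bound by NF-Y) 20 bases apart, the arrangement through which the Nlrc5 complex is known to act.
H2-K1, chr17:34000359-34000388, minus strand: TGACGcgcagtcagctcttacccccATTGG
H2-D1, chr17:35262993-35263022, plus strand: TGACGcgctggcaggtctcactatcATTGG
B2m, chr2:122147609-122147638, plus strand: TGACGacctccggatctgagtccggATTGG
The heavy chains were identical at 23 of these 30 bases, and B2m matched H2-K1 at 13 and H2-D1 at 12. These counts include the capitals, which were fixed by the search and so match in advance. This exact arrangement, searched on both strands, was found in 31 of 32851 promoter windows (0.0944%), which belong to 27 genes. H2-M3, a non-classical class I gene, was also among them. The letters searched were chosen after these promoters had been seen.

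The second set shows the element upstream of it in the heavy chains, and an ISRE core in the B2m window. In the heavy chains the capitals mark a kappaB-like site and an interferon-stimulated response element (ISRE)-like site. The ISRE core of B2m was found with another motif and in the other orientation, and no kappaB-like site was found in the B2m window.
H2-K1, chr17:34000429-34000457, minus strand: GGGATTCCCcatctccacagTTTCACTTC
H2-D1, chr17:35262924-35262952, plus strand: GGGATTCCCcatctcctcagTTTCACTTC
B2m, chr2:122147538-122147566, plus strand: ataagaacatGAAACTGAAaatgggaaag
H2-K1 and H2-D1 were identical at 28 of 29 bases here, a count that includes the letters fixed by the search. Over all windows and both strands, the ISRE-like motif GAANNGAAA of the heavy chains was found in 7.52%, the motif GAAANNGAA of B2m, which can overlap it, in 8.56%, the kappaB-like motif GGGANNNCC in 18.6%, TGACG in 20.8% and ATTGG in 37.4%. GAANNGAAA, GGGANNNCC, TGACG and ATTGG occurred together in 34 windows (0.103%), and H2-K1, H2-D1, H2-Q4, H2-Q7 and H2-M2 were among their 33 genes. The Tap1 and Psmb9 windows overlap on opposite strands, and in the bases they share TGACG and ATTGG each occurred 1 time, at another distance and on opposite strands. The Tapbp window held ATTGG, and in the Psmb8 and Psmb10 windows none of these letters were found. The start sites used lie 3579 bases inside the counted gene for Tapbp and 474 for Psmb8. Windows at the outer start of these genes were not searched.

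The level of a gene per length is given here as the authors' FPKM, averaged over the 12 tumors. H2-D1 (3790), B2m (2359) and H2-K1 (1384) were the most abundant, at rank 12, 23 and 59 of all genes. The loading factor Tapbp followed at 272.3 FPKM. Psmb8 was at 82.06, Tap2 at 54.09, Psmb10 at 53.76, Psmb9 at 53.33 and Tap1 at 46.05 FPKM, while the regulator Nlrc5 was the lowest of the 10 at 8.787 FPKM. The order H2-D1, B2m, H2-K1, Tapbp, Psmb8 held in 12 of 12 tumors at each step, and Psmb8 was above Tap2 in 11. Neighbours could not be ordered among Tap2, Psmb10, Psmb9 and Tap1, since Tap2 was above Psmb10 in 8 of 12 tumors, Psmb10 above Psmb9 in 6 and Psmb9 above Tap1 in 9. The lengths behind these FPKM were shorter than the listed gene lengths for 9 of the 10 genes (for H2-K1, 1121 against 2608 bases), so the order also depends on the authors' choice of length.

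**Figure D1:**
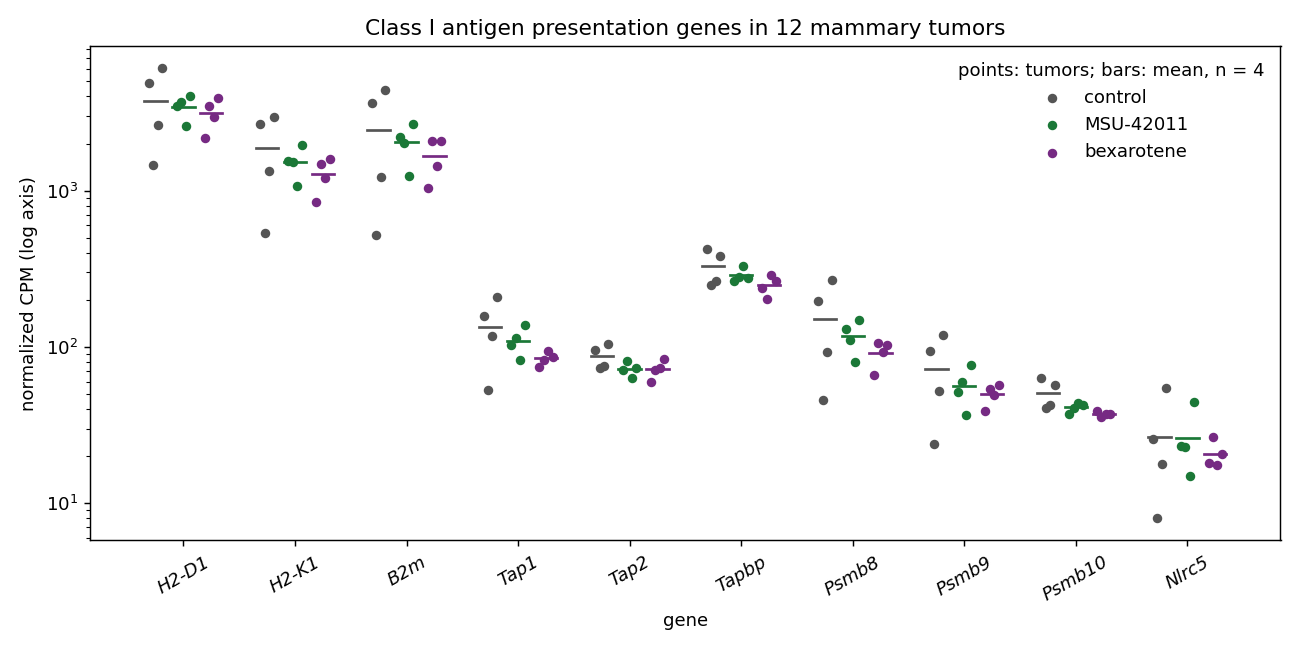
Normalized CPM (log axis) of the 10 class I genes in each of the 12 tumors, with points for tumors and bars for the mean of 4. The control tumors spread the most for each gene, from 517.9 to 4384 for B2m, and the points of the 3 groups overlap for all genes except Psmb10 between bexarotene and control, which overlap in FPKM.

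The heavy chains carry the peptide. H2-D1 was measured at 4910, 1454, 2627 and 6045 normalized CPM in control replicates 1 to 4, at 3451, 3681, 2572 and 4042 with MSU-42011, and at 2155, 3463, 2954 and 3931 with bexarotene. H2-K1 was at 2674, 537.6, 1330 and 2976 in control tumors, at 1543, 1514, 1068 and 1964 with MSU-42011, and at 841.7, 1472, 1203 and 1602 with bexarotene. For both genes all agonist-treated tumors lay inside the range of the control tumors. The log2 fold change of H2-D1 was −0.13 ± 0.37 (SE) with MSU-42011 and −0.27 ± 0.37 with bexarotene (edgeR, adjusted p = 1 and 0.94). For H2-K1 it was −0.30 ± 0.42 and −0.55 ± 0.42 (edgeR, adjusted p = 1 and 0.89). Neither heavy chain passed the test. Of the 100-base windows of the H2-D1 transcript, 4.64% also occurred in transcripts of other genes, most of all H2-Q1, Gm7030 and H2-T23. Part of its count may thus be shared with relatives, whereas no window of H2-K1 was shared. Class I heavy chains also differ in sequence between mouse strains, and how well the reads of these mice map to the reference was not tested.

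B2m, the invariant light chain, varied more between control tumors than any of the other 9 genes. It was at 3618, 517.9, 1228 and 4384 normalized CPM in control replicates 1 to 4, an 8.46-fold range, at 2212, 2011, 1239 and 2677 with MSU-42011 (2.16-fold), and at 1042, 2090, 1432 and 2062 with bexarotene (2-fold). Control replicates 1 and 4 were above every agonist-treated tumor and control replicate 2 was below every one of them. MSU-42011 gave a log2 fold change of −0.26 ± 0.53 and bexarotene of −0.56 ± 0.53 (edgeR, adjusted p = 1 and 0.912).

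Among the peptide loading genes, Tap1, the first chain of the peptide transporter, showed the same picture. Its levels were 157.1, 52.79, 117.2 and 208.5 normalized CPM in control tumors, 103.3, 114.7, 81.96 and 137.4 with MSU-42011, and 74.87, 82.27, 94.59 and 86.08 with bexarotene. The bexarotene tumors were below 3 of the 4 control tumors and above control replicate 2. The log2 fold change was −0.29 ± 0.31 with MSU-42011 and −0.67 ± 0.31 with bexarotene (edgeR, adjusted p = 0.783), and −0.61 without bexarotene replicate 1. Tap2, the second chain of the transporter, was far less variable. It was at 95.42, 73.48, 75.95 and 105.1 in control tumors, 70.88, 81.01, 63.11 and 73.34 with MSU-42011 and 59.45, 70.83, 73.81 and 83.44 with bexarotene, with a 1.43-fold range in the control group against 3.95-fold for Tap1. Both agonists gave a similar fold change, −0.28 ± 0.14 and −0.28 ± 0.14 (edgeR, adjusted p = 1 and 0.801). Tapbp encodes tapasin, which bridges the transporter and the empty class I molecule. Its levels were 424.1, 250.5, 265.7 and 379.4 normalized CPM in control tumors, 264.7, 278.7, 328.4 and 276.8 with MSU-42011, and 239.1, 201.5, 289 and 263.6 with bexarotene. Here control replicates 1 and 4 were above all 8 treated tumors. The log2 fold change was −0.20 ± 0.18 with MSU-42011 and −0.41 ± 0.18 with bexarotene (edgeR, adjusted p = 0.763; exact permutation p = 0.171) and −0.39 without bexarotene replicate 1. Without control replicate 1 it was −0.06 with MSU-42011 and −0.27 with bexarotene. Tapbp overlaps Zbtb22 on the same strand by 3421 bases, and the count of Zbtb22 was 16.9% of that of Tapbp.

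The immunoproteasome subunits cut peptides with the hydrophobic or basic ends that class I molecules prefer. Psmb8 was at 195.6, 45.59, 92.63 and 266.6 normalized CPM in control tumors, 130.2, 110.3, 79.57 and 149 with MSU-42011, and 66.57, 105.7, 92.26 and 102.4 with bexarotene. Psmb9 was at 93.99, 24.05, 52.11 and 118.9 in control tumors, 51.58, 59.25, 36.73 and 76.66 with MSU-42011, and 38.82, 53.94, 49.21 and 57.2 with bexarotene. Both followed B2m in having their extremes in control replicates 2 and 4. The log2 fold changes were −0.36 ± 0.42 and −0.71 ± 0.42 for Psmb8 and −0.37 ± 0.39 and −0.54 ± 0.39 for Psmb9, with MSU-42011 and bexarotene respectively (edgeR, adjusted p of at least 0.856). The first bases of Psmb9 and Tap1 overlap by 212 on opposite strands, and as the strand setting of the counting is not given in the sources used here, reads from this stretch cannot be assigned to either gene.

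Psmb10, the third immunoproteasome subunit, was the member with the smallest p. It was at 63.37, 40.57, 42.39 and 56.71 normalized CPM in control tumors, 37.39, 40.53, 43.93 and 42.46 with MSU-42011, and 38.89, 35.53, 37.05 and 37.34 with bexarotene. On this scale all bexarotene tumors were below all control tumors, by a narrow margin at control replicate 2. In the authors' FPKM the groups overlapped, with 50.95 in bexarotene replicate 1 against 48.54 in control replicate 2 (exact permutation p = 0.0571). The 4 bexarotene values were close to each other (37.2 ± 1.38, SD, n = 4), against 50.76 ± 11.1 in control tumors. The log2 fold change was −0.45 ± 0.14 with bexarotene (edgeR, p = 0.00667, adjusted p = 0.762), and the exact two-sided permutation test gave p = 0.0286, the smallest that 4 tumors against 4 allow. Without bexarotene replicate 1 it was −0.47. With MSU-42011 it was −0.31 ± 0.14 (edgeR, adjusted p = 1; exact permutation p = 0.229), with groups that overlap. Neither passed the threshold once adjusted over all genes. Without control replicate 1 the log2 fold change of Psmb10 was −0.18 with MSU-42011 and −0.33 with bexarotene.

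Nlrc5 was at 25.75, 8.048, 17.75 and 54.38 normalized CPM in control tumors, 23.37, 22.84, 14.84 and 44.22 with MSU-42011, and 18.01, 26.61, 17.53 and 20.72 with bexarotene. The highest tumor of the control group was 6.76-fold above the lowest, and 2.98-fold and 1.52-fold in the agonist groups. The log2 fold change was −0.01 ± 0.47 with MSU-42011 and −0.36 ± 0.47 with bexarotene (edgeR, adjusted p = 1 and 0.937). An antisense gene, 9330175E14Rik, overlaps the start of Nlrc5 by 748 bases and had 13.8% of its count.

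Across the list, 0 of 10 genes passed an adjusted p of 0.05 with either agonist or between the agonists, where 0% of all tested genes passed in each comparison. At an unadjusted p under 0.05, 1 of 10 was lower with MSU-42011 (Psmb10), where 0.851% of all genes were lower and 1.99% differed in either direction. With bexarotene 2 of 10 were lower (Psmb10 and Tapbp), where 1.96% of all genes were lower and 6.44% differed. Without overlap between the groups, 1 of 10 (Psmb10) was lower with bexarotene in normalized CPM, against 0.89% of all genes, and 0 of 10 in FPKM, against 0.542%. The fitted log2 fold change was below 0 for 10 of 10 genes with both agonists, against 49.7% of all genes with MSU-42011 and 44.7% with bexarotene, and its median over the 10 was −0.29 and −0.49, against 0.0016 and 0.03 over all genes. The members move together from tumor to tumor, and both comparisons share the control tumors, so these counts are not 10 separate observations. In bulk tumors, fewer cells that express a gene and less RNA per cell cannot be told apart.

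The direction with MSU-42011 turned for 6 of the 10 genes when control replicate 4 was left out. Without this tumor, 4 of 10 genes were below 0 with MSU-42011, with a median of 0.008, and 8 of 10 with bexarotene, with a median of −0.22. With bexarotene the fold change was then 0.06 for H2-D1, 0.27 for Nlrc5, −0.11 for B2m, −0.19 for Psmb9, −0.244 for H2-K1, −0.28 for Psmb8, −0.37 for Tap1 and −0.18 for Tap2. Without control replicate 1, 9 of 10 and 10 of 10 genes were below 0, with medians of −0.135 and −0.33, and without control replicate 2 the medians were −0.48 and −0.75. In limma on log2(FPKM + 1), which averages log values, 6 of 10 genes were below 0 with MSU-42011 (median −0.06) and 10 of 10 with bexarotene (median −0.27). Without bexarotene replicate 1, 10 of 10 genes were below 0 with bexarotene, with a median of −0.40. The fold change of H2-D1 was then −0.12, that of H2-K1 −0.40, B2m −0.39, Tap2 −0.20, Psmb8 −0.585, Psmb9 −0.44 and Nlrc5 −0.29.

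**Figure D2:**
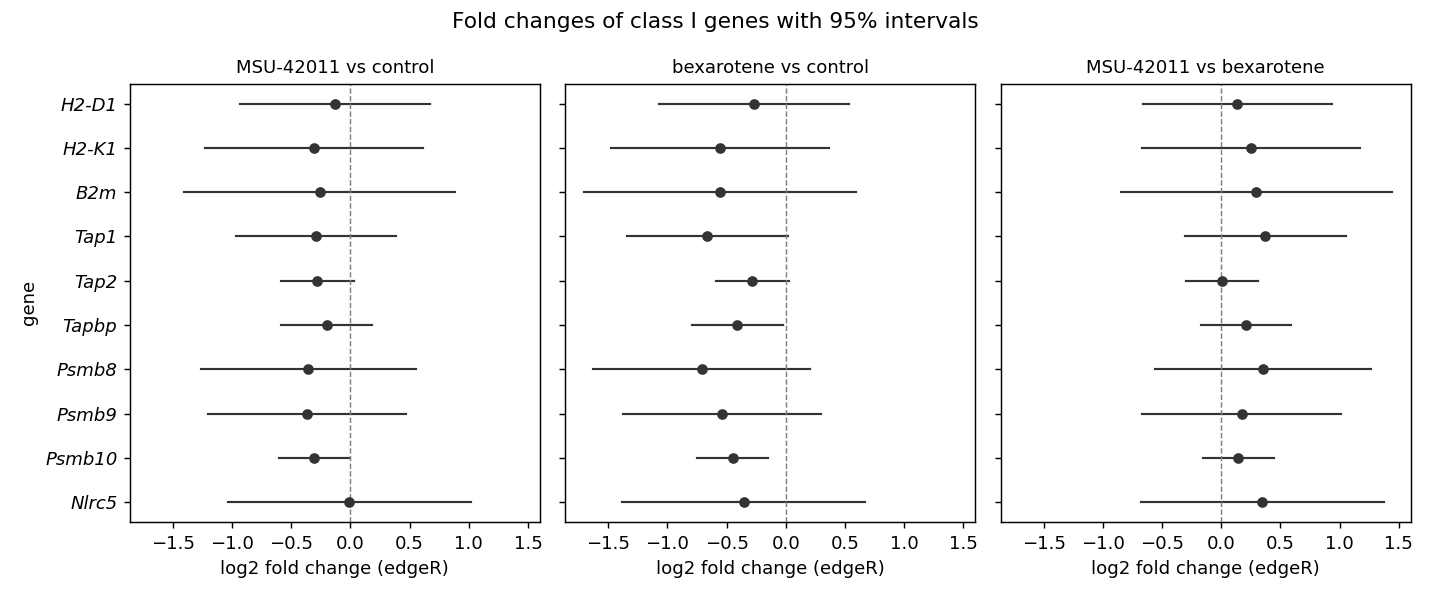
Log2 fold changes from edgeR with 95% intervals for the 10 genes in 3 comparisons of 4 tumors against 4. All points lie left of 0 against control and right of 0 for MSU-42011 against bexarotene, and the intervals include 0 except for Psmb10 against control with both agonists and Tapbp with bexarotene.

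The agonists were fed at the same dose for the same time and form 1 pair, so they could be set against each other directly. The fitted level was higher with MSU-42011 than with bexarotene for 10 of 10 genes, where 45.1% of all genes were, with a median log2 difference of 0.23 against −0.024 over all genes. None passed the test (edgeR, adjusted p of at least 0.997, with 0 of 10 genes at an unadjusted p under 0.05, against 3.95% of all genes). The widest of the differences was 0.37 for Tap1, with a 95% interval of −0.31 to 1.05. For B2m the interval ran from −0.85 to 1.44, for H2-K1 from −0.67 to 1.17 and for Nlrc5 from −0.68 to 1.37, so a 2-fold difference in favor of MSU-42011 lies inside each of these intervals. The intervals were narrower for Tap2 (−0.30 to 0.31) and Psmb10 (−0.16 to 0.44), which leave out a 2-fold difference. Without bexarotene replicate 1 the median fell to 0.15, and H2-D1 (−0.005) and Tap2 (−0.08) were below 0.

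These genes differed widely between tumors of the control group. For 10 of 10 the SD of log2 normalized CPM was largest in that group, where 26.3% of all tested genes had their largest SD (26.8% with MSU-42011 and 46.9% with bexarotene). The 10 genes follow the same tumors, so this count is not 10 separate observations either. It was 1.44 for B2m, which is the 99.4th percentile of all tested genes in that group, 1.14 for H2-K1 and Psmb8, 1.12 for Nlrc5, 1.02 for Psmb9, 0.93 for H2-D1 and 0.85 for Tap1. In the same tumors it was 0.25 for Tap2, 0.31 for Psmb10 and 0.38 for Tapbp. Control replicate 2 was the lowest control tumor for 10 of 10 genes and the lowest of all 12 tumors for 7, and control replicate 4 was the highest of all 12 for 8. Relative to the mean of the control group, the median over the 10 genes was 0.49, −1.25, −0.24 and 0.92 on the log2 scale in control replicates 1 to 4. It was −0.11, −0.05, −0.52 and 0.30 with MSU-42011 and −0.63, −0.19, −0.32 and −0.08 with bexarotene. All treated tumors lay between control replicates 2 and 1. The difference in spread between the groups was not tested.

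**Figure D3:**
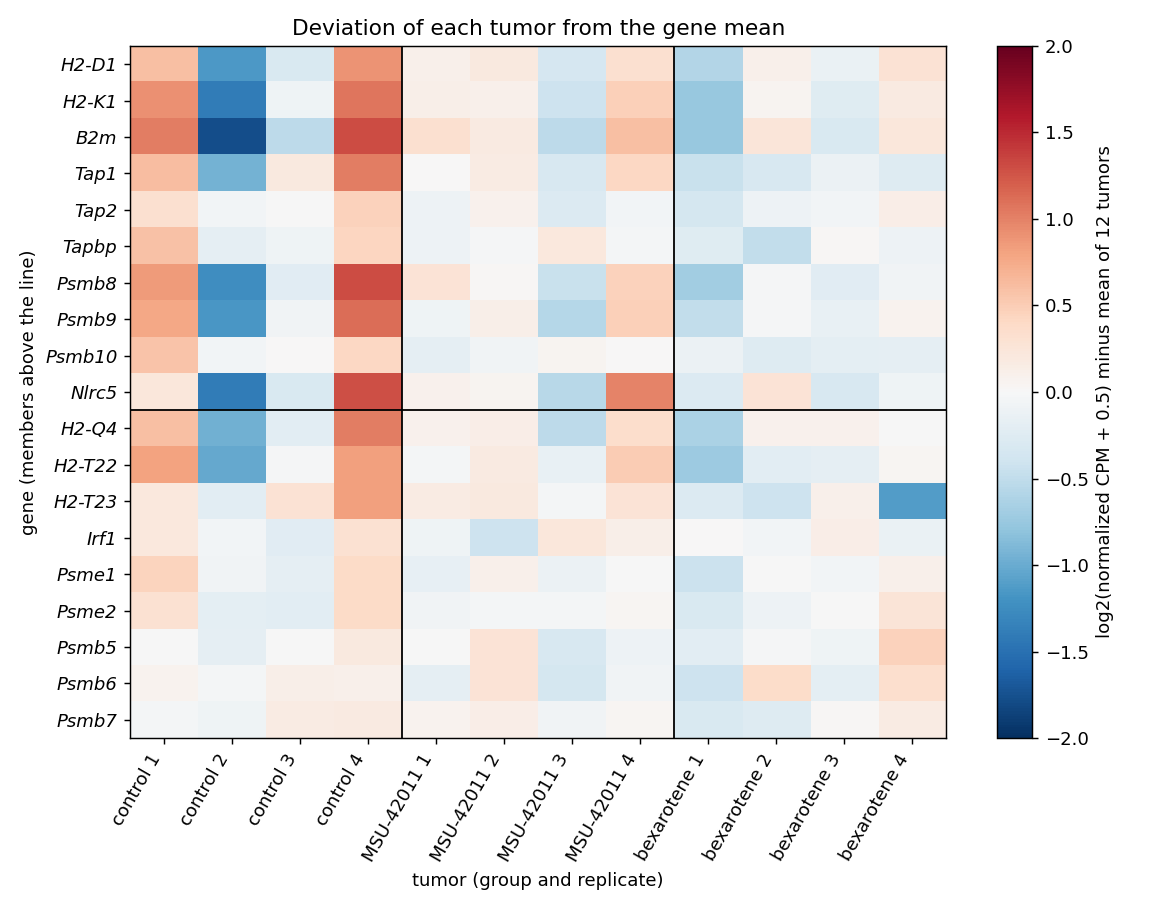
Deviation of log2(normalized CPM + 0.5) from the mean of 12 tumors (color) for the 10 genes, above the line, and for genes of the same pathway, below it. Control replicate 2 is low and control replicate 4 high for 7 of the 10 genes and for H2-Q4 and H2-T22, while Psmb5, Psmb6 and Psmb7 vary little in these tumors.

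Over the 12 tumors, the 45 pairs of members had a median Pearson correlation of log2 normalized CPM of 0.764, from 0.326 (Tapbp with Nlrc5) to 0.99 (H2-D1 with B2m). These correlations describe the libraries and share their normalization. The heavy chains, B2m, Tap1, Psmb8, Psmb9 and Nlrc5 had median correlations with the other members of 0.876 to 0.951. The medians were lower for Tap2 (0.722), Psmb10 (0.623) and Tapbp (0.583). Tapbp and Psmb10 were most like each other (0.895). The neighbours Tap1 and Psmb9 correlated at 0.951.

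Outside the list, the class I relatives most like the mean z-score of the 10 were H2-T10 (r = 0.979), H2-T22 (0.971) and H2-Q4 (0.957), of 15494 genes ranked. Also among the 10 most like were Naa50 (0.944), an N-terminal acetyltransferase, Igtp (0.942), an interferon-inducible GTPase, Xaf1 (0.928), H2-Q1 (0.922), H2-Q6 (0.914) and the ubiquitin-like Isg15 (0.902). H2-T10, H2-T22, H2-Q4, Naa50 and Igtp stayed among the 10 most like genes in each of the 12 fits that left out a tumor, and Isg15 did in 3. Several of these class I relatives have near-identical copies, so reads may have been split between them.

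Nlrc5 was compared in the same way with the listed genes of this pathway and of the marker lists, 106 in all. With B2m, r was 0.908 (permutation p = 0.00015, adjusted p = 0.0049) and rho was 0.895 (permutation p = 0.00024, adjusted p = 0.00768). With Psmb9, r was 0.911 (permutation p = 2e-04, adjusted p = 0.0049) and rho was 0.86 (permutation p = 0.00056, adjusted p = 0.0119). After control replicates 2 and 4, the tumors farthest from the median of Nlrc5, were left out, r was 0.752 for B2m and 0.739 for Psmb9, and with the group means removed it was 0.908 and 0.941. Without these 2 tumors r was 0.715 for Psmb8, 0.681 for H2-K1, 0.68 for H2-D1 and 0.573 for Tap1. For Tap2, Psmb10 and Tapbp it was then 0.32, 0.14 and −0.059. Among 15503 genes ranked by their correlation with Nlrc5, Psmb9 was at rank 2, B2m at 3, Psmb8 at 6, H2-D1 at 9, H2-K1 at 10 and Tap1 at 16. Tap2 was at rank 717 (r = 0.521), Psmb10 at 1777 (r = 0.391) and Tapbp at 2469 (r = 0.326). The genes most like Nlrc5 were H2-Q7 (0.913), Psmb9, B2m, H2-Q6 (0.907) and Vps13a (0.901). For Irf1, r was 0.303 (permutation p = 0.339, adjusted p = 0.659) and rho 0.14 (permutation p = 0.668, adjusted p = 0.823), and r was 0.032 without the 2 tumors. No sequencing batch or date is given in the labels, so no value within batches could be computed.

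**Figure D4:**
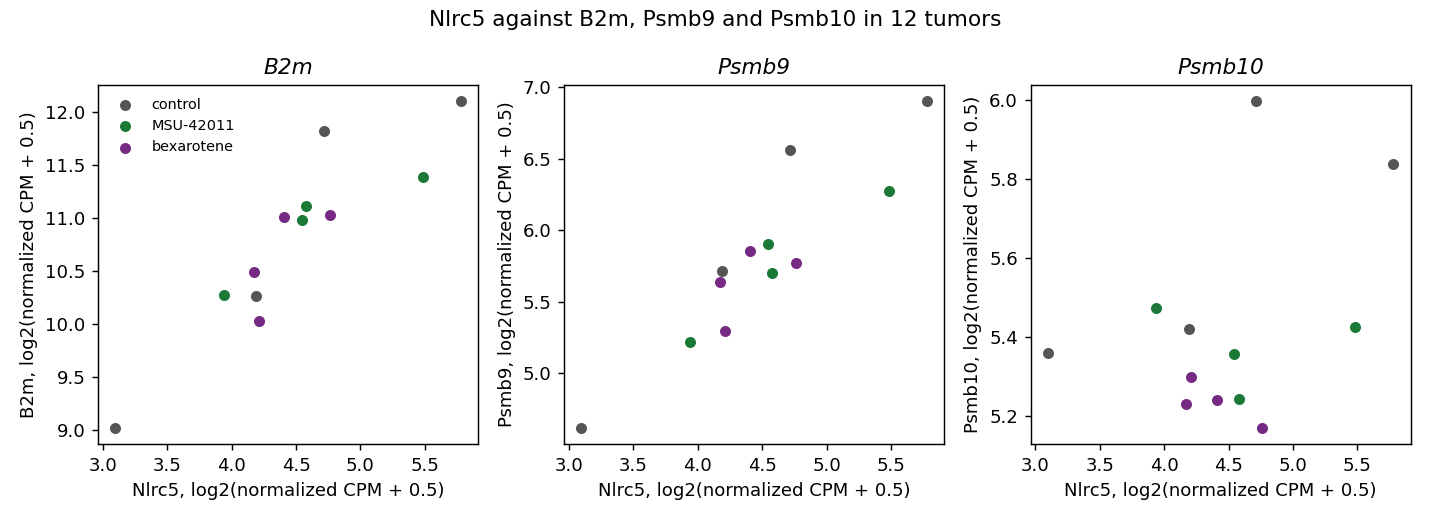
Log2(normalized CPM + 0.5) of Nlrc5 (x axis) against B2m, Psmb9 and Psmb10 (y axes) in 12 tumors, colored by group. B2m (r = 0.908) and Psmb9 (r = 0.911) rise with Nlrc5 and the points for Psmb10 scatter (r = 0.391).

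Each immunoproteasome subunit was also divided by the constitutive subunit it replaces, as a ratio of FPKM within a tumor. The ratio Psmb8/Psmb5 was 1.68, 0.444, 0.797 and 2 in control tumors, 1.13, 0.778, 0.85 and 1.38 with MSU-42011, and 0.661, 0.916, 0.838 and 0.636 with bexarotene. Psmb9/Psmb6 ran from 0.102 to 0.453 in control tumors, 0.192 to 0.332 with MSU-42011 and 0.172 to 0.232 with bexarotene. Psmb10/Psmb7 ran from 1.09 to 1.88, 1.03 to 1.33 and 0.962 to 1.38. The groups overlapped for all of these, and the exact permutation tests gave p of at least 0.143. Psmb5, Psmb6 and Psmb7 themselves had log2 fold changes between −0.14 and 0.06 against control and did not pass the test.

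The ratio H2-D1/H2-K1 was 2.28 to 3.36 in control tumors, 2.55 to 3.02 with MSU-42011 and 2.92 to 3.18 with bexarotene, with no difference past the spread (exact permutation p of at least 0.143). Tap2/Tap1 was 1.01, 2.32, 1.08 and 0.839 in control tumors, 1.14, 1.18, 1.28 and 0.888 with MSU-42011, and 1.32, 1.43, 1.3 and 1.61 with bexarotene. The MSU-42011 tumors were all below the bexarotene tumors, by 0.34 in the mean log2 ratio (exact two-sided permutation p = 0.0286, adjusted p = 0.429 over 15 ratio tests), which does not pass after adjustment. Without bexarotene replicate 1 the difference was −0.38 (exact permutation p = 0.0571). Control replicate 2, with the lowest Tap1, had the highest ratio of all.

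**Figure D5:**
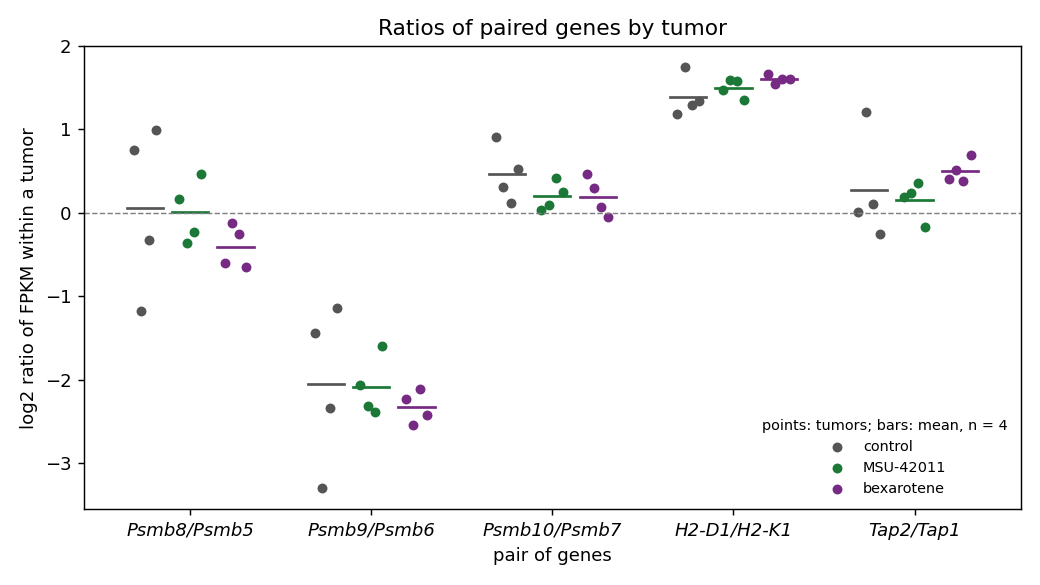
Log2 ratio of FPKM within each tumor for 5 pairs of genes, with points for tumors and bars for the mean of 4. The control tumors spread widest for Psmb8/Psmb5 and Psmb9/Psmb6, and the bexarotene points for Tap2/Tap1 lie above all MSU-42011 points.

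The rest of the pathway was read through 6 lists of 60 genes, of which 52 were tested and 0 passed the adjusted threshold in any comparison (edgeR). At an unadjusted p under 0.05, 0 were called with MSU-42011 and 1 with bexarotene, where 1.99% and 6.44% of all genes were. Of the 13 tested non-classical class I and class I-like genes, 11 had log2 fold changes below 0 with each agonist, with medians of −0.21 and −0.55, where 49.7% and 44.7% of all genes were below 0. Between control tumors, 7 of the 13 differed by 3.55-fold to 29.3-fold (H2-Q7), each with its lowest level in control replicate 2 and its highest in control replicate 4. The other 6, among them Cd1d1, Mr1 and Hfe, differed by 1.18-fold to 2.07-fold. Without control replicate 4, 6 of the 13 were below 0 with MSU-42011 (median 0.04) and 11 with bexarotene (median −0.21). Without bexarotene replicate 1, 12 were below 0 with bexarotene (median −0.43). H2-T23 (Qa-1), a ligand of inhibitory and activating receptors on NK cells, was at 52.99, 39.34, 55.59 and 81.32 normalized CPM in control tumors, 50.87, 51.98, 44.36 and 54.99 with MSU-42011, and 37.56, 34.2, 49.11 and 20.84 with bexarotene. For bexarotene the log2 difference from control was −0.69 ± 0.25 (edgeR, adjusted p = 0.762; exact permutation p = 0.0571), which did not pass. H2-T10 and H2-T22 were at −0.58 ± 0.34 and −0.56 ± 0.34 with bexarotene and at −0.29 ± 0.34 and −0.17 ± 0.34 with MSU-42011 (edgeR, adjusted p of at least 0.856).

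The medians of the other lists were closer to 0. They were 0.09 with MSU-42011 and −0.05 with bexarotene for 9 peptide trimming and loading partners, in which the aminopeptidase Erap1 was at 0.11 ± 0.22 and −0.34 ± 0.23, Lap3 at 0.05 ± 0.12 and −0.18 ± 0.12, and Tpp2 at 0.16 ± 0.09 with both. For 6 proteasome activators and assembly factors they were −0.05 and −0.05. Psme1 and Psme2, the subunits of the interferon-inducible PA28 cap, were at −0.21 ± 0.16 and −0.12 ± 0.16 with MSU-42011 and −0.25 ± 0.16 and −0.12 ± 0.16 with bexarotene, and the assembly chaperone Psmg2 at 0.07 ± 0.18 and 0.20 ± 0.18. For 15 tested genes of interferon gamma signaling and class I transcription the medians were −0.08 and −0.02, and for 6 tested repressors and turnover factors −0.002 and 0.04. In the former list Irf1 was at −0.10 ± 0.15 and −0.09 ± 0.15, Rfxap, a subunit of the RFX complex, at −0.18 ± 0.11 and −0.02 ± 0.11, Rfxank at −0.26 ± 0.18 and −0.25 ± 0.18, and Nfkb1 at −0.03 ± 0.13 and −0.19 ± 0.13. In the latter the ubiquitin ligase March9 was at −0.28 ± 0.16 and −0.06 ± 0.16, Susd6 at −0.01 ± 0.20 and −0.19 ± 0.20, and Suz12, a Polycomb subunit, at 0.004 ± 0.11 and 0.07 ± 0.11. All of these are edgeR log2 fold changes with their SE, and none passed the test.

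Ifng, the cytokine that induces most of these genes, had 11 counts over the 12 tumors, 6 of them in control replicate 1, and 0 counts in 6 tumors, so it was not tested. A count of 0 allows up to 3 counts in a tumor, and these limits cover counting error only. Markers of the cells that make Ifng were also low. The 10 T cell markers summed to 13.11, 6.959, 5.826 and 11.16 normalized CPM in control replicates 1 to 4, 6.846 to 13.38 with MSU-42011 and 4.905 to 9.926 with bexarotene (at most 8.347 without replicate 1), and 2 of the 10, Cd3d and Cd247, were at 0 in 1 tumor each. The 7 NK and cytotoxic markers summed to 8.723, 5.586, 3.421 and 10.47 in control tumors, 5.029 to 8.179 with MSU-42011 and 2.909 to 5.395 with bexarotene, with 4 of 7 at 0 in at least 1 tumor, Klrb1c in 8 of 12 and Prf1 in 6. Both sums were higher in control replicates 1 and 4, which also had the highest class I levels, than in control replicates 2 and 3. The same held for the endothelial markers (132.3, 64.01, 88.94 and 124.5 in control replicates 1 to 4) and the fibroblast markers (425.1, 92.46, 157.5 and 252.4), both lowest in control replicate 2. Other sums did not follow the class I levels in the control tumors. In control replicates 1 to 4 the macrophage markers summed to 515.6, 460.9, 208.8 and 328.5, the dendritic cell markers to 16.73, 20.31, 4.597 and 8.015 and the epithelial markers to 6309, 6501, 5082 and 5833, and Ptprc, found on all leukocytes, was at 11.51, 12.64, 4.062 and 8.231. Control replicate 2, with the lowest class I levels, was thus the highest control tumor for the dendritic cell and epithelial markers and Ptprc. MSU-42011 replicate 3 had the highest T cell sum of the 12 tumors and the lowest B2m of its group. Single markers differed within a list. Among the tested T cell markers, the correlation with the mean z-score of the 10 class I genes ran from −0.167 (Cd4) to 0.603 (Cd3g). For Nkg7 and Gzmb it was 0.445 and 0.586. Of the 5 B cell markers, all were at 0 in at least 1 tumor, and their sum was 2.657 in bexarotene replicate 1 and at most 2.06 in the other 11 tumors. The 10 macrophage markers summed to 208.8 to 515.6 in control tumors, 224.9 to 555.4 with MSU-42011 and 240.9 to 412.1 in bexarotene replicates 2 to 4, against 1729 in bexarotene replicate 1. The 6 dendritic cell markers summed to 4.597 to 20.31 in control tumors, 7.963 to 14.46 with MSU-42011 and 5.211 to 8.204 in bexarotene replicates 2 to 4, against 22.69 in replicate 1. The 6 endothelial markers summed to 64.01 to 132.3, 87.61 to 172.7 and 98.59 to 111.3 in the same tumors, against 371.1 in bexarotene replicate 1. Ptprc ran from 4.062 to 12.64, 7.251 to 14.95 and 4.108 to 10.02, against 41.62 in that tumor. Bexarotene replicate 1 was thus the highest of the 12 tumors for the macrophage, B cell, dendritic cell, endothelial and fibroblast markers and for Ptprc. The part of these cells in the class I levels was not tested.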

How the data were processed

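RNA of 12 mammary tumors was sequenced after poly(A) enrichment. The authors deposited raw read counts per gene and FPKM values, which they normalized to a gene length and the total count. The submitters' processing notes name STAR 2.6.1d, featureCounts 1.5.0-p3 and DESeq2. The build is not given in the sources used here, and 98.3% of the genes have the coordinates of GENCODE M21 (GRCm38). Columns were matched to tumors by their titles. Counts were tested with edgeR 4.0.16 (R 4.3.3): TMM, filterByExpr at its defaults, quasi-likelihood F tests in 1 model of 12 tumors with a mean per group and no covariate, and Benjamini-Hochberg adjustment over 15504 genes at a threshold of 0.05. Errors of fold changes are SE, and intervals are 95%. Logs of normalized CPM used a pseudocount of 0.5. Single values and ratios were compared by exact two-sided permutation tests, and correlations over tumors by two-sided permutation tests with 100000 resamples. The main alternative was DESeq2 1.42.0, the tool of the study, and the others were its size factors, no filter, a replicate block, the groups of a comparison alone, limma 3.58.1 on log2 FPKM, and each tumor left out. On counts simulated for bexarotene against control with 15504 genes, edgeR called 41% of 100 genes changed 2-fold, 80% of 100 changed 4-fold and 10 of 15304 unchanged genes. The simulated spread was that typical of genes at each level and was equal in all groups. The 10 class I genes spread the most in control tumors, so these shares cannot be taken as the power for them. Depth was 16583413 to 25925027 counts per tumor, where 3 counts correspond to 0.111 to 0.184 normalized CPM. The members and the lists were chosen with earlier results of these data known. Named genes were the 10 members, the 3 genes of each pathway list with the smallest p among the 3 groups, the constitutive subunits, Irf1, Ifng, Psme1 and Psme2, and the 10 genes most like the members and 5 most like Nlrc5, of which 1 gene is not reported here; promoters came from RefSeq (GRCm38.p6).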

Additional observations from a re-analysis of the deposited data

How the results depend on the processing

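The count of class I genes past the threshold was 0 in all 3 comparisons under every alternative run, and the smallest adjusted p of a member was 0.304 (DESeq2, Psmb10, bexarotene against control). Over all genes edgeR called 0 in each comparison (309, 998 and 612 at an unadjusted p under 0.05), whereas DESeq2 called 1 with MSU-42011, 6 with bexarotene, 25 between the agonists and 5 among the 3 groups. When single tumors were left out, edgeR called 0 to 1 with bexarotene and 0 to 1 among the 3 groups. With MSU-42011, limma on log2(FPKM + 1) turned the sign for H2-K1 (0.008), H2-D1 (0.117), B2m (0.199) and Nlrc5 (0.207), and with 0.1 added it gave 0.008, 0.117, 0.199 and 0.257; the cause was not tested. The deviations of same-numbered tumors of different groups correlated at over 0.1 in 5 of 12 pairs (from −0.388 to 0.38). Their median was 0.064, against −0.026 for tumors with different numbers, and this check cannot exclude a pairing by number. The replicate block left the count of members called at 0 and turned Nlrc5 with MSU-42011 to 0.078, and no other member turned. Psmb9 with MSU-42011 was at −0.66 without control replicate 2 and at −0.014 without control replicate 4. Tap2 was at −0.357 and −0.177 in these 2 fits. Tapbp and Psmb10 with MSU-42011 were at −0.057 and −0.181 without control replicate 1. Leaving out 1 tumor gave, with MSU-42011, ranges of −0.402 to 0.199 for H2-D1, −0.616 to 0.009 for H2-K1, −0.602 to 0.186 for B2m, −0.561 to 0.007 for Tap1, −0.662 to 0.078 for Psmb8 and −0.386 to 0.621 for Nlrc5. With bexarotene they were −0.541 to 0.059 for H2-D1, −0.665 to 0.27 for Nlrc5, −0.902 to −0.113 for B2m, −0.869 to −0.244 for H2-K1, −0.937 to −0.369 for Tap1, −1.02 to −0.28 for Psmb8 and −0.835 to −0.189 for Psmb9, lowest without control replicate 2 and highest without control replicate 4, and between the agonists −0.077 to 0.089 for Tap2, −0.011 to 0.33 for Psmb9, −0.019 to 0.544 for Nlrc5 and −0.005 to 0.272 for H2-D1. Among the log2 ratios, the ranges were −0.465 to 0.258 for Psmb8/Psmb5, −0.451 to 0.268 for Psmb9/Psmb6 and −0.292 to 0.196 for Tap2/Tap1 with MSU-42011, −0.688 to 0.03 for Psmb9/Psmb6 with bexarotene, and −0.078 to 0.095 for Psmb10/Psmb7 between the agonists. The Tap2/Tap1 difference between the agonists (−0.344, exact permutation p = 0.0286) gave an exact p = 0.125 by sign flips within the replicate number, the smallest that 4 pairs allow. For the 13 non-classical class I genes, leaving out 1 tumor, an alternative chosen after seeing the data, gave medians of −0.437 to 0.04 with MSU-42011 and −0.796 to −0.208 with bexarotene, and limma on log2(FPKM + 1) gave −0.021 and −0.153. The count of members lower with bexarotene without overlap was 1 in normalized CPM and 0 in FPKM, also chosen after seeing the data. The lowest value of a member, 8.048 normalized CPM for Nlrc5, was above the 0.111 to 0.184 normalized CPM of 3 counts.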
